A study of Mus musculus with 4 samples.

Results

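The colony-stimulating factors and their receptors were examined in bone-marrow-derived macrophages (BMDMs), which are macrophages grown from marrow precursors with M-CSF. The genes were taken by symbol from the table of read counts and comprise 3 ligands (Csf1, Csf2 and Csf3) and 5 receptor chains (Csf1r, Csf2ra, Csf2rb, Csf2rb2 and Csf3r), which are 8 of the 21878 genes in the table. RNA sequencing was performed on 4 libraries of C57BL/6 BMDMs that had been cocultured with MC38, a mouse colon cancer cell line, for 48 h according to the labels, which give an age of 8 weeks. The labels divide them into 2 libraries of wild type (WT) cells and 2 libraries of anti-Act1 cells, from mice with a macrophage-specific knockdown of Act1, the signaling adaptor encoded by Traf3ip2. The comparison asks how these genes differ between macrophages of both genotypes after the same exposure to cancer cells. The methods of the study place an insert with small pores between macrophages and cancer cells and give a slightly wider age range, and a legend of the study gives a shorter coculture time. For pathway enrichment, its methods name mice with the Apc Min allele and their cross with anti-Act1 mice as the source of the macrophages, unlike the labels. The study describes the replicates as biological. The construct and promoter behind the knockdown, the number of mice behind the replicates, and whether M-CSF stayed in the medium during coculture are not given in the sources used here, so p-values measure only the spread between these libraries.

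The 3 factors are secreted cytokines that direct the growth and survival of myeloid cells. M-CSF, the product of Csf1, acts on the receptor tyrosine kinase encoded by Csf1r, on which most tissue macrophages and BMDM cultures depend. GM-CSF, the product of Csf2, binds an alpha chain of its own (Csf2ra) that pairs with the common beta chain (Csf2rb), which IL-3 and IL-5 receptors share and which signals through JAK2 and STAT5. Mice carry a second beta chain, Csf2rb2, which serves IL-3 only. G-CSF, the product of Csf3, acts on the receptor encoded by Csf3r, known best from granulocytes.

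The 2 beta chain genes are close copies, and their sequences bear on how far their counts can be told apart. Csf2rb lies on the plus strand at chr15:78325752-78353847 and Csf2rb2 on the minus strand at chr15:78282507-78305721 (GRCm38, GENCODE M21), with 20030 bases between them. Their coding sequences of 2688 and 2634 bases were identical at 2503 of 2628 aligned bases (95.2%). The 60-base stretch that differs most, with 13 mismatches, is shown 5′ to 3′ with the differing bases in capitals, at coding positions 304 to 363 of Csf2rb (chr15:78338893-78338952, plus strand) and 307 to 366 of Csf2rb2 (chr15:78294379-78294438, minus strand).
Csf2rb: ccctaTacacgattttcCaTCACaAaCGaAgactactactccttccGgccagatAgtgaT
Csf2rb2: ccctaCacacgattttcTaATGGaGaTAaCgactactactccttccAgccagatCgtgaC
The longest run shared by both coding sequences, 242 bases long, covers coding positions 2083 to 2324 in each gene (chr15:78348577-78348818, plus strand, in Csf2rb, and chr15:78284630-78284871, minus strand, in Csf2rb2). Taken alone, a read that falls wholly within it carries no base that separates the genes. The reads were paired, and mates were not considered here.
shared run: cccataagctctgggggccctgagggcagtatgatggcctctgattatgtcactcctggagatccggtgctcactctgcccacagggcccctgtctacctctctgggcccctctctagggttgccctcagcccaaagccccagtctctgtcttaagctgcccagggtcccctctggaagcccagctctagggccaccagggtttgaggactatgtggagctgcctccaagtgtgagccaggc
Of all stretches of 150 bases, the length of 1 read, 3.58% of those in Csf2rb and 3.59% of those in Csf2rb2 occur in both genes, counted in the transcript with the longest coding sequence of each gene. At 50 bases the shares were 18.9% and 19.0%. How the counting treated such reads is not given in the sources used here, so the split between both genes is uncertain by an amount that was not measured.

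The upstream sequences of Csf1 and Csf3r, the members with the largest differences described here, are shown from RefSeq (GRCm38.p6), 5′ to 3′ on the strand of the gene. Windows of 250 bases before the annotated start were given for 5 of the 8 genes. Capitals mark a match to the NF-kB motif, which lies on the opposite strand in both, at positions -154 to -145 from the RefSeq start of Csf1 and -129 to -120 from that of Csf3r. The Csf1 window is chr3:107760470-107760719 (minus strand). Of the Csf3r window only the 141 bases outside annotated exons are given, chr4:126024409-126024549 (plus strand).
Csf1: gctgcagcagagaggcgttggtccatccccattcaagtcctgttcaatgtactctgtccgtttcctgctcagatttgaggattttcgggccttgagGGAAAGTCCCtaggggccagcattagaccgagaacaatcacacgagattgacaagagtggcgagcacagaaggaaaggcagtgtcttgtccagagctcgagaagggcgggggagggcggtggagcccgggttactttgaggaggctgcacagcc
Csf3r: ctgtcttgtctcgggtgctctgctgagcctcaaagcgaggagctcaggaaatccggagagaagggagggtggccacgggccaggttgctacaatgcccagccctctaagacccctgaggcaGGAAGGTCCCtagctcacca
On either strand, the NF-kB motif was found in 7.25% of all 32851 windows of 250 bases. The C/EBP motif (TTNNGNAA) was found in 36.8% of all windows and in those of Csf2 and Csf2ra. The PU.1 motif (GAGGAA) occurred in 23.3% of all windows and in those of Csf2ra, Csf2rb2 and Csf3r. The PU.1 match of Csf3r, at -86 to -81, lies within annotated exons, outside the bases shown. Those of Csf2ra, at -14 to -9 and -8 to -3, reach into or lie within annotated exons. The STAT motif (TTCNNNGAA) occurred in 7.02% of all windows and in that of Csf2rb2. None of these matches overlapped another. They are matches of letters and were not tested for binding.

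Total counts were 64199075 and 75062945 in libraries labelled WT against 61926229 and 55435063 in libraries labelled anti-Act1, so both libraries labelled WT were deeper. Traf3ip2, the gene targeted by the knockdown, had 6.98 and 7.54 CPM (the count of a gene relative to the TMM-adjusted total of its library) in libraries labelled WT against 9.63 and 7.84 CPM in libraries labelled anti-Act1 (adjusted p = 0.12 in edgeR), so its RNA was not lower there and every direction below rests on the labels. Without anti-Act1 replicate 2 its log2 fold change was 0.41 (adjusted p = 0.034 in edgeR). Y-linked genes summed to 227.6 to 246.1 CPM in libraries labelled WT and to at most 0.0162 CPM in those labelled anti-Act1. The sex chromosomes of the cells and the genotype therefore cannot be told apart. This holds for the 8 genes too, although 0 of them lie on X or Y. All 10 macrophage markers on a list that includes Adgre1, Cd68, Itgam and Lyz2 were detected, with summed levels of 25620 to 26650 CPM in WT and 26340 to 27150 CPM in anti-Act1, most of it from Lyz2. Of these markers, 3 were called lower in anti-Act1 (Itgam, Mertk and Mrc1, by 0.31, 0.40 and 0.63 on the log2 scale) and 1 higher (Cd14). Over all genes tested, 9.76% were called lower and 10.9% higher. Markers listed for epithelial tumor cells summed to at most 0.464 CPM, with 4 of 8 at 0 in every library, among them Krt8 and Krt18. No library holds MC38 cells alone, so the level of these markers in MC38 was not measured.

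Receptor chains were far more abundant than ligands. FPKM, which divides counts by a gene length and the library total, allows levels to be set side by side between genes. Csf1r stood highest, at 642.4 ± 10.3 FPKM in WT and 599.4 ± 12.3 FPKM in anti-Act1 (mean ± SD, n = 2 libraries here and in all such values), and ranked between 75 and 91 of 21874 genes across the libraries. Its RNA alone took 0.225% to 0.247% of all counts.

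Both beta chains came next. Csf2rb had 239.0 ± 0.222 FPKM in WT and 268.3 ± 1.2 FPKM in anti-Act1. Csf2rb2 had 230.3 ± 1.93 FPKM in WT and 246.3 ± 1.93 FPKM in anti-Act1. Csf2rb stood above Csf2rb2 in every library, with 50.8% to 52.2% of the FPKM of the pair. Pooled over both genotypes their ranges overlapped, from 238.9 to 269.2 FPKM for Csf2rb and from 229.0 to 247.6 FPKM for Csf2rb2.

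Csf3r followed with 40.6 ± 0.424 FPKM in WT and 28.6 ± 0.373 FPKM in anti-Act1. Csf2ra had 21.9 ± 0.382 FPKM in WT and 22.9 ± 1.36 FPKM in anti-Act1. Csf1 had 5.22 ± 0.258 FPKM in WT and 7.62 ± 0.404 FPKM in anti-Act1 and was the only ligand above 1 FPKM. These 3 genes and the 3 receptor chains above them did not overlap in FPKM over all libraries, apart from the pair of beta chains. Csf3 (0.0260 to 0.126 FPKM) and Csf2 (0 to 0.0667 FPKM) lay near the limit of detection.

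**Figure D1:**
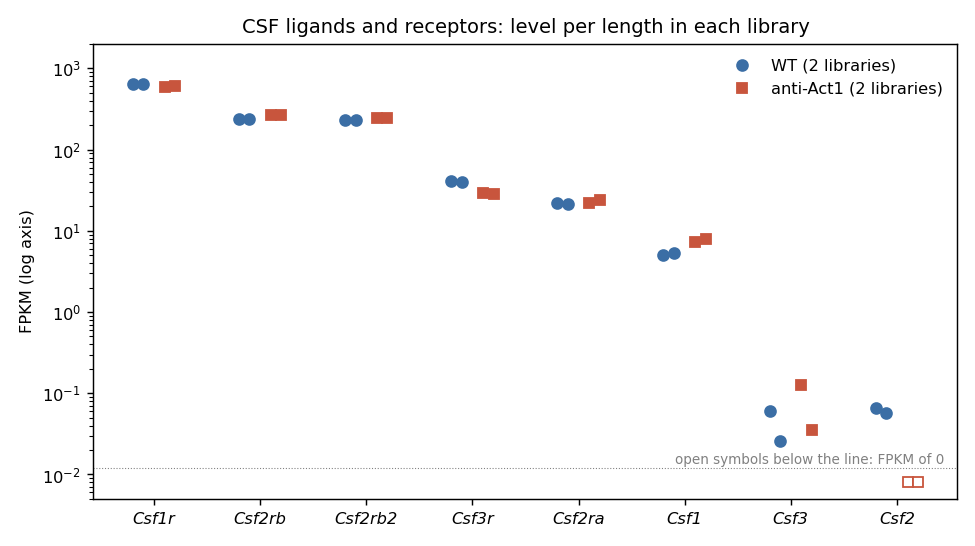
Level per length of the 8 genes in each library, in FPKM on a log axis, with circles for the 2 libraries labelled WT and squares for the 2 libraries labelled anti-Act1; open squares below the dotted line are values of 0. Csf1r sits between 591 and 650 FPKM, both beta chains between 229 and 269 FPKM, Csf1 between 5.04 and 7.90 FPKM, and Csf2 and Csf3 below 0.13 FPKM.

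The order depends on the length assigned to each gene. The gene lengths recovered from the deposited tables were 6529 bases for Csf2ra and 3407 bases for Csf3r, whereas the longest coding transcripts of GENCODE M21 measure 1849 and 3481 bases. With the latter, Csf2ra stood above Csf3r in every library, at 76.5 to 84.3 against 27.8 to 40.1 CPM per kilobase (here from unadjusted library totals). Csf2rb2 then stood above Csf2rb in every library, at 221.1 to 239.1 against 187.1 to 210.8 CPM per kilobase. Csf1r stayed at the top and Csf1 below all 5 receptor chains under both lengths. The relation of each gene to itself between genotypes does not depend on the length.

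Among the members, 6 had enough counts for edgeR's quasi-likelihood test, and 3 of them passed an adjusted p of 0.05 (Benjamini-Hochberg over the 12494 genes tested). Csf1 and Csf2rb were higher in anti-Act1 and Csf3r was lower. Across all genes tested, 20.7% passed, 10.9% higher and 9.76% lower. The CPM of both groups did not overlap for 5 of the 6, beside 57.1% of all genes tested. With 2 libraries against 2, an exact permutation test on a single gene cannot go below p = 0.333, so the calls rest on the spread pooled across genes. In bulk RNA, fewer cells of a type and less RNA per cell cannot be told apart.

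**Figure D2:**
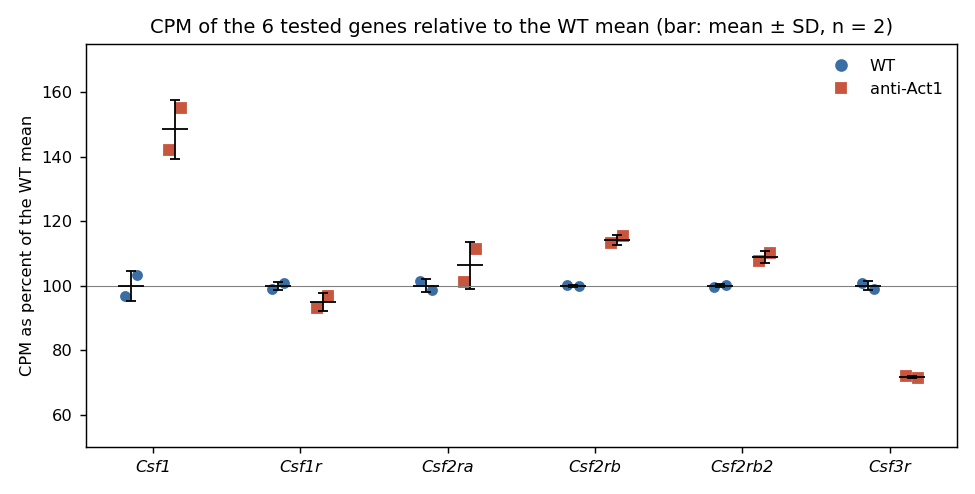
CPM of the 6 tested genes as percent of the WT mean, with points for libraries and bars for the mean ± SD of 2 libraries per group. Both libraries labelled anti-Act1 lie above both libraries labelled WT for Csf1, Csf2rb and Csf2rb2, below them for Csf1r and Csf3r, and overlap with them for Csf2ra.

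Csf1, the gene for M-CSF (chr3:107741048-107760469, minus strand), was the ligand with measurable RNA. Its level was 16.3 and 17.4 CPM in libraries labelled WT against 24.0 and 26.2 CPM in libraries labelled anti-Act1, from 1056 to 1482 counts. Both libraries labelled anti-Act1 lay above both libraries labelled WT. Csf1 rose 1.48-fold (log2 fold change 0.57 ± 0.079 SE, 95% interval 0.41 to 0.73, edgeR adjusted p = 1.7e-07). It passed in all 14 alternatives tried, with log2 fold changes from 0.47 to 0.63. By FPKM, Csf1 ranked 7690 and 7543 among all genes in WT and 6652 and 6406 in anti-Act1. The FPKM of Csf1r was 126 and 120 times that of Csf1 in libraries labelled WT against 80.6 and 76.9 times in libraries labelled anti-Act1.

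Csf2, the gene for GM-CSF (chr11:54247271-54249667, minus strand), had 4 counts in each library labelled WT and 0 in each library labelled anti-Act1. A count of 0 allows up to 3 counts, or 0.0486 and 0.0549 CPM in these libraries. The WT mean as measured was 1.11 times the mean of these limits, a ratio that leaves out counting error on the WT counts. Without a filter on low counts, edgeR gave an unadjusted p of 0.12 and an adjusted p of 0.35, and no difference was detectable at this depth.

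Csf3, the gene for G-CSF (chr11:98701263-98703629, plus strand), had 8 and 4 counts in libraries labelled WT against 16 and 4 counts in libraries labelled anti-Act1. The groups overlapped, the mean CPM of anti-Act1 was 1.88 times that of WT, and edgeR without the filter gave an adjusted p of 0.67. Il34, which encodes the second ligand of CSF1R, had at most 2 counts in any library. Il3 and Il5, whose products signal through the common beta chain, were at 0 in every library. Csf1 was the only gene among these 6 ligand genes with more than 16 counts in any library.

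Csf1r, the M-CSF receptor (chr18:61100598-61132149, plus strand), had 2398 and 2442 CPM in libraries labelled WT against 2251 and 2346 CPM in libraries labelled anti-Act1. Both libraries labelled anti-Act1 lay slightly below both libraries labelled WT. The log2 fold change was -0.07 ± 0.049 SE, with a 95% interval from -0.17 to 0.02 and an edgeR adjusted p of 0.32, so a difference was not shown. It passed in 0 of 14 alternatives, which gave -0.10 to -0.04. Csf1r is itself among the 10 macrophage markers, of which 3 were lower and 1 higher.

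Csf3r, the G-CSF receptor (chr4:126024550-126044440, plus strand), had 138.6 and 135.9 CPM in libraries labelled WT against 98.8 and 98.2 CPM in libraries labelled anti-Act1. The groups were well apart, and replicates differed by far less than the groups did. Csf3r fell to 0.72 of the WT level (log2 fold change -0.48 ± 0.053 SE, 95% interval -0.59 to -0.37, edgeR adjusted p = 6.3e-10). It passed in all 14 alternatives, from -0.50 to -0.47. By FPKM it moved from rank 1844 and 1859 in WT to rank 2589 and 2597 in anti-Act1, and Csf1r exceeded it 15.5 and 16.1 times in WT and 20.4 and 21.4 times in anti-Act1.

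Cells other than macrophages also carry Csf3r, so their markers are given beside it. Of 12 neutrophil markers, the defining Ly6g had 5, 0, 0 and 0 counts and Cxcr2 2, 6, 2 and 2 counts in WT 1, WT 2, anti-Act1 1 and anti-Act1 2. The list summed to 527.0 to 540.8 CPM in WT and 531.7 to 549.1 CPM in anti-Act1, nearly all of it from Mmp8. Of the 8 tested neutrophil markers, 4 were lower in anti-Act1 (Retnlg, Ngp, Ltf and S100a9) and 1 was higher (S100a8). Most calls moved with Csf3r, and the median log2 fold change was -1.21. Retnlg rested on 22, 19, 2 and 0 counts in the same order of libraries. Neither Ngp nor Ltf was called in every alternative. The levels of the called markers were low. Without Mmp8 the sums were 7.67 to 7.74 and 6.74 to 7.87 CPM, of which S100a8, at 3.61 to 6.09 CPM, was the largest part. Of 8 monocyte markers, 3 were lower and 2 higher, and the sum moved with Csf3r, at 281.1 to 286.0 CPM in WT and 215.1 to 215.2 CPM in anti-Act1, with most of it from Vcan, F13a1 and Hp. Without these 3 genes it was 9.17 to 10.3 and 9.71 to 11.7 CPM. Over all genes tested, 9.76% were called lower and 10.9% higher. The part of other cells in the fall of Csf3r was not tested.

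Csf2ra, the GM-CSF-specific alpha chain (chr19:61223957-61228429, minus strand), had 144.1 and 139.9 CPM in libraries labelled WT against 143.8 and 158.3 CPM in libraries labelled anti-Act1. The groups overlapped. The log2 fold change was 0.09 ± 0.054 SE (95% interval -0.02 to 0.20, edgeR adjusted p = 0.27), and the call was absent in all 14 alternatives.

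Csf2rb, the common beta chain, had 910.9 and 907.9 CPM in libraries labelled WT against 1029 and 1049 CPM in libraries labelled anti-Act1. Both groups were tight and did not overlap. Csf2rb rose 1.14-fold (log2 fold change 0.19 ± 0.049 SE, 95% interval 0.09 to 0.29, edgeR adjusted p = 0.0029). It passed in 13 of 15 alternatives, which include the fit on its counts summed with those of Csf2rb2. Without anti-Act1 replicate 2 the log2 fold change was 0.18 with an edgeR adjusted p of 0.051.

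Csf2rb2, the IL-3-specific beta chain, had 1041 and 1049 CPM in libraries labelled WT against 1124 and 1151 CPM in libraries labelled anti-Act1. The groups did not overlap, but the difference of 1.09-fold did not pass (log2 fold change 0.12 ± 0.049 SE, 95% interval 0.02 to 0.22, edgeR adjusted p = 0.072). DESeq2, the tool named in the methods of the study, gave the same size with an adjusted p of 0.015.

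Since reads may have been exchanged between both beta chains, their counts were also summed. The pair had 1952 and 1957 CPM in WT and 2153 and 2199 CPM in anti-Act1, a log2 fold change of 0.16 ± 0.049 SE (95% interval 0.06 to 0.25, edgeR adjusted p = 0.017). Csf2rb took 46.7% and 46.4% of the counts of the pair in WT and 47.8% and 47.7% in anti-Act1. The difference of 1.21 percentage points gave p = 0.333 in a two-sided exact permutation test, the smallest that 2 against 2 libraries allow. Together the beta chains exceeded Csf2ra in FPKM by 21.1 and 21.7 times in WT and 23.3 and 21.6 times in anti-Act1, ratios that overlap and that scale with the length given to Csf2ra.

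**Figure D3:**
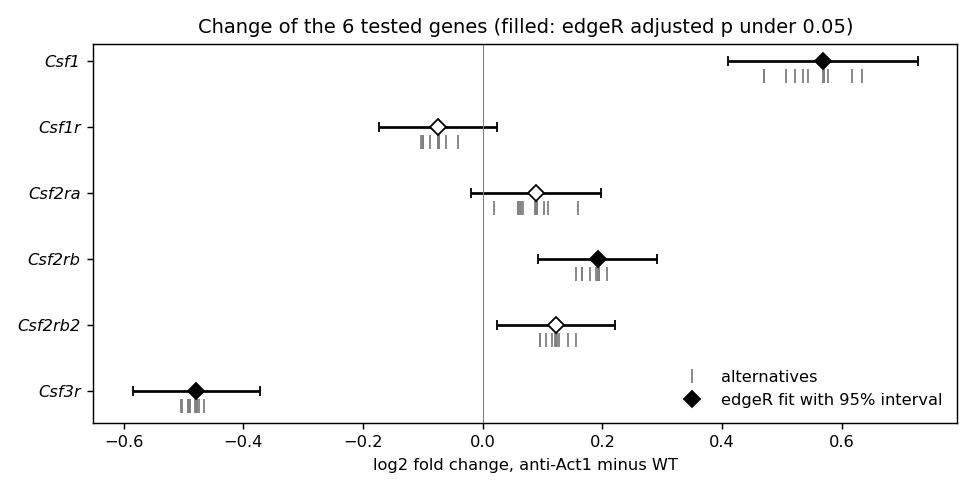
Log2 fold change (anti-Act1 minus WT) of the 6 tested genes, with diamonds and bars for the edgeR estimate and its 95% interval, filled where the adjusted p was under 0.05, and ticks for the alternatives. Csf1 (0.57) and Csf3r (-0.48) stand well away from 0, Csf2rb (0.19) and Csf2rb2 (0.12) slightly above it, and the intervals of Csf1r and Csf2ra include 0.

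The alpha chains that complete the IL-3 and IL-5 receptors differed in level. Il3ra had 58.7 and 58.4 CPM in WT and 62.6 and 67.7 CPM in anti-Act1, with no overlap and a log2 fold change of 0.15 that did not pass (edgeR adjusted p = 0.057). Il5ra was at 0 in all libraries.

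For each of the 3 called members, the genes with the most similar pattern were those at the smallest Euclidean distance in centred log2 CPM over the 4 libraries, among 10892 genes with a mean of at least 1 CPM. For Csf1 these were Il15ra, the alpha chain of the IL-15 receptor (distance 0.032), and Mical2, an actin regulator (0.0465), which had log2 fold changes of 0.59 and 0.59. For Csf2rb they were 1700037H04Rik (0.00814) and Tom1, an endosomal adaptor (0.0153), with 0.19 and 0.19, both of which missed the threshold with any 1 library left out (adjusted p from 0.056 to 0.23 in edgeR). For Csf3r they were Slc25a23, a mitochondrial carrier (0.0254), and Arhgef6, a guanine nucleotide exchange factor (0.0393), with -0.50 and -0.46. With 4 libraries in 2 groups, the distance mostly reflects the size of the difference between the groups.

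Downstream of the M-CSF receptor, 23 genes for adaptors, kinases, phosphatases and regulators of CSF1R signaling were tested. Of these, 3 were higher and 8 lower in anti-Act1 by the edgeR adjusted p, beside 10.9% and 9.76% of all genes tested. The median log2 fold change was -0.09 beside -0.0046 for all genes tested. This list and those below were chosen with earlier results of these data known. The number lower ranged from 4 (without anti-Act1 replicate 1) to 10 over the alternatives, and was 5 without anti-Act1 replicate 2. The number higher was 1 without anti-Act1 replicate 2.

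Dab2, an endocytic adaptor, was the member of this list that fell most, from 300.3 and 338.7 CPM in WT to 198.6 and 195.8 CPM in anti-Act1 (log2 fold change -0.70 ± 0.054 SE and adjusted p = 1.4e-14 in edgeR). Dok2, an adaptor that restrains Ras signaling, fell by 0.36 on the log2 scale and Fyn, a Src-family kinase, fell by 0.35. Adam17, the protease that releases membrane-bound M-CSF and the ectodomain of its receptor, rose from 338.4 and 338.9 CPM to 391.0 and 400.0 CPM (log2 fold change 0.22 ± 0.050 SE and adjusted p = 0.00065 in edgeR). Rhbdf2, which helps Adam17 to mature, and Cblb, a ubiquitin ligase, each rose by 0.18 on the log2 scale, but passed in only 7 and 8 of 14 alternatives. In edgeR with 1 library left out, Rhbdf2 did not pass without WT replicate 2 (adjusted p = 0.064) or anti-Act1 replicate 2 (0.10 on the log2 scale, adjusted p = 0.49). Cblb passed only without WT replicate 2 (adjusted p from 0.090 to 0.18 otherwise, and 0.12 on the log2 scale without WT replicate 1), and Fyn did not pass without anti-Act1 replicate 1 (adjusted p = 0.078). Tyrobp, an adaptor of myeloid receptors, overlapped between groups (-0.04 on the log2 scale, edgeR adjusted p = 0.66).

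Downstream of the GM-CSF and IL-3 receptors, 18 genes of JAK2 and STAT5 signaling were tested. Of these, 5 were higher and 3 lower, beside 10.9% and 9.76% of all genes tested, with a median log2 fold change of -0.05. Over the alternatives 3 to 6 were higher, with 3 by limma on log2(FPKM + 1) without a filter, and 2 to 4 lower. The kinase gene Jak2 had 63.1 and 63.4 CPM in WT and 74.4 and 66.7 CPM in anti-Act1 (0.16 on the log2 scale, edgeR adjusted p = 0.052). It passed in 4 of 14 alternatives. The log2 fold change was 0.08 (adjusted p = 0.62 in edgeR) without anti-Act1 replicate 1 and 0.23 (adjusted p = 0.031) without anti-Act1 replicate 2. Stat5a (-0.14) and Stat5b (-0.07) did not pass.

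Among the other genes of this list, Cish, a feedback inhibitor of STAT5, had 3.98 and 4.11 CPM in WT and 5.80 and 7.03 CPM in anti-Act1, a rise of 1.58-fold (log2 fold change 0.66 ± 0.144 SE and adjusted p = 0.00045 in edgeR). Socs3, an inhibitor of G-CSF and IL-6 receptor signaling, rose by 0.58 on the log2 scale. The survival kinases Pim1 and Pim2 rose by 0.27 and 0.75. Socs2, also a feedback inhibitor, overlapped between groups at 1.61 to 2.82 CPM. In the other direction, Id1, an inhibitor of differentiation, fell from 4.84 and 4.99 CPM to 1.30 and 1.83 CPM (log2 fold change -1.66 ± 0.187 SE and adjusted p = 1.1e-09 in edgeR). Myc fell by 0.76 and the survival gene Bcl2l1 fell by 0.24, which did not pass without anti-Act1 replicate 1 (adjusted p = 0.097 in edgeR). The list thus held calls in both directions.

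A list of transcription factors chosen as candidates to act on promoters of CSF receptors held 13 tested genes. Their action on these promoters was not tested. Of these genes, 3 were higher and 6 lower, beside 10.9% and 9.76% of all genes tested, with a median log2 fold change of -0.08. The number lower was 2 by limma on FPKM without a filter. Spi1, which encodes PU.1, had 355.1 and 354.4 CPM in WT and 349.5 and 355.7 CPM in anti-Act1 (log2 fold change -0.01, 95% interval -0.11 to 0.09, edgeR adjusted p = 0.93). Cebpa, a regulator of the Csf3r promoter, fell from 162.3 and 158.0 CPM to 133.5 and 125.7 CPM (log2 fold change -0.31 ± 0.053 SE and adjusted p = 1.2e-05 in edgeR). Cebpb had 351.1 and 211.8 CPM in WT and 170.4 and 132.8 CPM in anti-Act1, so the libraries labelled WT differed from each other by more than WT replicate 2 differed from anti-Act1. It passed in edgeR (log2 fold change -0.89, adjusted p = 1.1e-09) but not in DESeq2 (adjusted p = 0.12), and the log2 fold change was -0.48 without WT replicate 1. Egr2, a factor of macrophage differentiation, fell by 0.78. Ets1 rose by 0.73 and Klf4, a factor of monocyte differentiation, rose by 0.47. Bach2 rose by 0.29, a call found in only 4 of 14 alternatives and lost with any 1 library left out (adjusted p from 0.060 to 0.26 in edgeR).

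**Figure D4:**
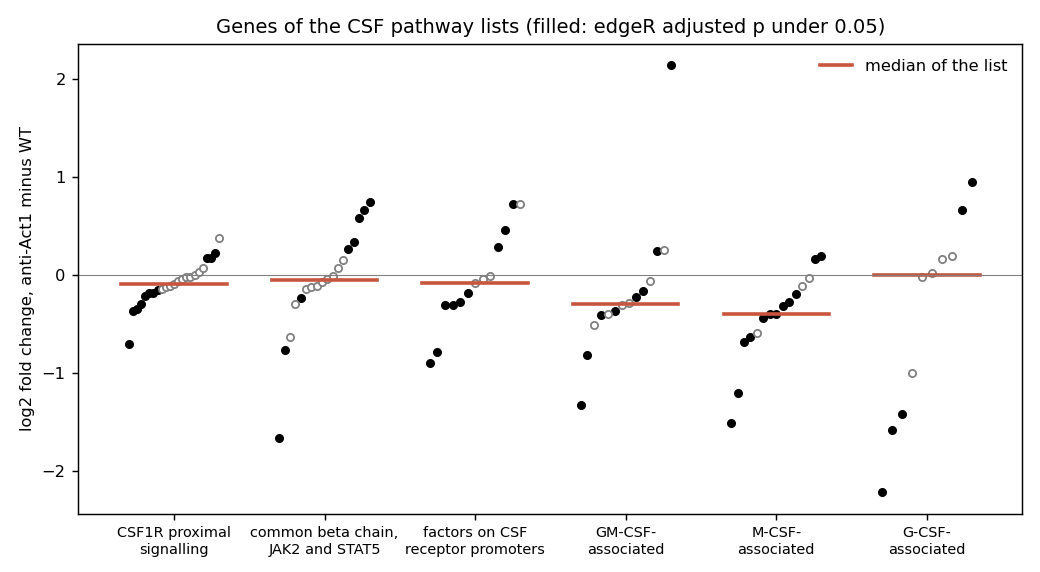
Log2 fold change (anti-Act1 minus WT) of every tested gene in 6 lists around the CSF receptors, filled where the edgeR adjusted p was under 0.05, with a bar for the median of each list. Medians lie between -0.40 for the M-CSF-associated genes and about 0 for the G-CSF-associated genes, and each list holds filled points on both sides of 0.

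Genes associated with each factor in myeloid cultures were counted in the same way. Of 15 tested M-CSF-associated macrophage genes, 2 were higher and 10 lower, beside 10.9% and 9.76% of all genes tested. The median log2 fold change was -0.40. The number lower ranged from 8 to 10 over the alternatives and the number higher from 0 to 2, with 0 without anti-Act1 replicate 1, 1 without WT replicate 2 and 1 with the replicate number as a block. Plau, the urokinase gene, fell from 89.0 and 89.3 CPM to 36.7 and 40.6 CPM (log2 fold change -1.21 ± 0.061 SE and adjusted p = 3.5e-21 in edgeR). Ccr2, a chemokine receptor of monocytes, fell by 0.68, which did not pass without anti-Act1 replicate 2 (-0.46, adjusted p = 0.066 in edgeR), and Mrc1, the mannose receptor, fell by 0.63. Cd14, the co-receptor for lipopolysaccharide, rose by 0.16 and passed in 8 of 14 alternatives, but not without WT replicate 2 (adjusted p = 0.090 in edgeR) or anti-Act1 replicate 1 (0.075).

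Of 18 GM-CSF-associated macrophage genes, 14 were tested, of which 2 were higher and 6 lower, beside 10.9% and 9.76% of all genes tested. The median log2 fold change was -0.29. The number lower ranged from 4 (in DESeq2) to 6 over the alternatives. Inhba, which encodes a subunit of activin A, rose from 2.26 and 1.74 CPM to 9.05 and 8.50 CPM (log2 fold change 2.14 ± 0.154 SE and adjusted p = 1.3e-15 in edgeR). Il1rn, the IL-1 receptor antagonist, rose by 0.25. Pparg, a lipid-sensing nuclear receptor that GM-CSF induces in alveolar macrophages, fell from 20.3 and 21.7 CPM to 11.9 and 12.1 CPM (log2 fold change -0.81 ± 0.086 SE and adjusted p = 2.2e-10 in edgeR). Siglecf, a surface marker of alveolar macrophages, fell by 1.32 and Clec7a, the beta-glucan receptor, fell by 0.40. Itgax, which encodes CD11c, fell by 0.23, a call kept in 9 of 14 alternatives, but not without WT replicate 2, anti-Act1 replicate 1 or anti-Act1 replicate 2 (adjusted p = 0.13, 0.15 and 0.057 in edgeR). Irf4 was low and overlapped between groups, at 0.502 to 0.929 CPM.

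Of 12 granulocyte genes associated with G-CSF, 10 were tested, of which 2 were higher and 3 lower, beside 10.9% and 9.76% of all genes tested. The median log2 fold change was about 0. The number lower was 1 without anti-Act1 replicate 2. Mmp9, a gelatinase, rose from 12.7 and 15.2 CPM to 25.7 and 28.5 CPM (log2 fold change 0.96 ± 0.084 SE and adjusted p = 1.0e-12 in edgeR). S100a8 and S100a9, whose products form a dimer, moved in opposite directions at low levels, from 3.61 and 3.74 CPM to 6.09 and 5.55 CPM for S100a8 and from 1.83 and 1.55 CPM to 0.810 and 0.440 CPM for S100a9. Ngp and Ltf, which encode granule proteins and are named here after their values were seen, fell by 2.21 and 1.58 from levels below 1 CPM. Neither was called in every alternative.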

How the data were processed

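RNA of 4 libraries was sequenced as read pairs. The authors filtered the reads, aligned them with TopHat and deposited 2 tables, raw read counts per gene and FPKM. The submitters' processing notes name Bowtie 0.12.2, HTSeq 0.6.1 and the builds mm8 and mm10, without their roles. The deposited FPKM equal the counts divided by a gene length and the library total, and the lengths were recovered from both tables.

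Counts were tested with edgeR 4.0.16 (R 4.3.3; TMM, filterByExpr, condition only, quasi-likelihood F test, two-sided), after the test had been checked on simulated data; standard errors and 95% intervals come from this model. CPM use TMM-scaled library totals. Levels between genes used FPKM. Alternatives were DESeq2 1.42.0, its size factors within edgeR, raw library totals, all genes with a count, a minimum of 10 counts per library, the replicate block, limma 3.58.1 on log2(FPKM + 1) or log2(FPKM + 0.1) for genes with an FPKM of at least 1 in 2 libraries, limma without that filter, thinned counts, summed beta chains and each library left out. Coding-transcript lengths were added after seeing the data. Named genes were all members, Traf3ip2, members' relatives, fixed signaling genes and, per list, up to 3 rises and 3 falls with an adjusted p under 0.05, at least 1 CPM and no overlap; 1 gene that meets this rule is not reported here. The members and lists were chosen with earlier results of these data known.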

Additional observations from a re-analysis of the deposited data

How the results depend on the processing

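Over all genes, 2586 passed in edgeR and 1979 in DESeq2. The count was 1091 by limma on log2(FPKM + 1) without a filter, and it ranged from 1671 (without anti-Act1 replicate 2) to 2543 (without WT replicate 1) with 1 library left out, and was 1712 without anti-Act1 replicate 1. With the replicate block it was 2406, and the same 3 of the 6 tested members passed; the correlation of same-numbered deviations was -0.032 over only 2 pairs, so the numbers were not taken as pairs. Csf1 and Csf3r passed in every alternative. Csf2rb ranged from 0.18 to 0.21 on the log2 scale with 1 library left out and did not pass without anti-Act1 replicate 2 (edgeR adjusted p = 0.051) or by limma on log2(FPKM + 1) without a filter (0.17, adjusted p = 0.065). Csf2rb2 on its own passed only in DESeq2 (0.12, adjusted p = 0.015). The summed pair passed (0.16, edgeR adjusted p = 0.017), but it tests both beta chains together and not Csf2rb2 alone. The cause of these differences was not tested. With the length of the longest coding transcript, the log2 ratio of WT levels turned from -0.89 to 0.96 for Csf2ra over Csf3r and from 0.05 to -0.25 for Csf2rb over Csf2rb2, which follows from the lengths. Among values that did not pass, the sign changed with 1 library left out for Tyrobp (-0.1211 to 0.0427), Irf4 (-0.6378 to 0.1066) and Spi1 (-0.0204 to 0.0065). Irf4 had only 31 to 60 counts per library. Replicates differed beyond sampling noise (chi-square per gene 10.4 in WT and 7.22 in anti-Act1). Depth limits Csf2, Csf3 and Il34, whose counts were too low to test.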
